A study of Mus musculus with 6 samples.

Results

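The AP-1 family of transcription factors was followed in activated CD4 T cells with and without Foxo1. The 10 members examined were chosen by gene symbol: the Fos subfamily (Fos, Fosb, Fosl1 and Fosl2), the Jun subfamily (Jun, Junb and Jund), and Batf, Batf3 and Jdp2. Of these 10 genes, 6 (Fos, Fosl2, Jun, Junb, Jund and Batf) were among the 13564 genes of the deposited normalized table, and the same 6 were among the 13691 genes tested here, which reached 10 counts in 3 or more libraries. Fosb, Fosl1, Batf3 and Jdp2 were below that limit and are described by their counts.

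RNA was sequenced from cultures of sorted naive CD4 T cells (CD4 N cells) of C57BL/6J mice, 3 from Foxo1TKO mice, in which a CD4-driven Cre deletes a floxed Foxo1 in all T cells, and 3 from Foxo1Ctrl mice, their controls. Both genotypes carried a Foxp3-GFP reporter according to the methods, which give 3 months as the age of young adult animals. All 6 cultures were kept for 4 days with soluble anti-CD3 antibody at 0.1 µg/ml and 250000 splenocytes of CD3eKO mice, which have no T cells and serve as antigen-presenting cells. The labels give 50000 CD4 N cells per culture, and the methods give a larger number. No source used here says whether splenocytes were removed before RNA was taken or whether each library came from its own animal, so the p-values measure the spread between these libraries, which may be technical. The expected counts, reads assigned to each gene by RSEM, summed to between 14783853 and 19675407 per library.

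The targeted gene itself, Foxo1, had 85.4, 46.5 and 115 normalized counts in the 3 Foxo1TKO libraries and 1529, 2285 and 1598 in the 3 Foxo1Ctrl libraries. Here and throughout, libraries are listed in the order of their replicate numbers, and a normalized count is the count scaled by edgeR's TMM method to a library of common size. Every library matched its label in this respect, with a log2 fold change of −4.45 (SE 0.36, adjusted p = 0.000195, quasi-likelihood test of edgeR, Benjamini-Hochberg adjusted over all genes tested). A gene was called higher or lower in Foxo1TKO cells when its adjusted p was under 0.05 and its fold change over 1.5.

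AP-1 factors bind DNA as pairs, held together by a leucine zipper next to a basic stretch that touches the DNA. Fos proteins cannot pair with each other and need a Jun partner, Jun proteins pair with each other or with Fos, and Batf pairs with Jun proteins and joins IRF4 or IRF8 at composite sites. In T cells, antigen receptor signals switch on Fos and Jun within minutes as immediate early genes, Fos-Jun pairs act with NFAT on cytokine genes, and Batf builds up over the days that follow.

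The promoters of Fos and Batf, the members that were called different, and of Jun and Junb, which varied most between libraries of the same genotype, are shown for orientation. The runs are RefSeq sequence of build GRCm38.p6, read 5′ to 3′ on the strand of the gene, and they end before the first transcribed base of either RefSeq or GENCODE M21. Capitals mark exact matches on either strand to the AP-1 site TGACTCA, the cAMP response element TGACGTCA, the Foxo site TGTTTAC, the NFAT core GGAAA, the serum response element or the TATA box TATAAA. The last of these was added after the values of the genes had been seen.

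Fos, chr12:85473640-85473889, plus strand: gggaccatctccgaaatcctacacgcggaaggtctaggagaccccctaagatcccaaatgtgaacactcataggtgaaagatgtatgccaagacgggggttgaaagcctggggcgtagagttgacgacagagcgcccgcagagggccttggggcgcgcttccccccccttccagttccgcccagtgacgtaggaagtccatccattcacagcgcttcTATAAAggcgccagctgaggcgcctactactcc

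Batf, chr12:85686470-85686668, plus strand: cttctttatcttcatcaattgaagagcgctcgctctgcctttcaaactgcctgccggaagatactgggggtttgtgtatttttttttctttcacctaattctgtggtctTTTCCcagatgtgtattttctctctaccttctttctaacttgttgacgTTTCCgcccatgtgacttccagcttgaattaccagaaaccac

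Jun, chr4:95052223-95052472, minus strand: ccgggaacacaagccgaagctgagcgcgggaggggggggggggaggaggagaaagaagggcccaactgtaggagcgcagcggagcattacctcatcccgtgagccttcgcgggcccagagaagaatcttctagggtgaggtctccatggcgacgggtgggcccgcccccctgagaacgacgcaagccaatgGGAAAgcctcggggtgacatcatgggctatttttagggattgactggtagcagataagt

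Junb, chr8:84978749-84978998, minus strand: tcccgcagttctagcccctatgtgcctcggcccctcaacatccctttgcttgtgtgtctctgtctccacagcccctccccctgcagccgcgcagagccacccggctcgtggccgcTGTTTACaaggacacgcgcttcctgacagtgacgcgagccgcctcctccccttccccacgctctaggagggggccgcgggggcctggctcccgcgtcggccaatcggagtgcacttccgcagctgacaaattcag

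In the printed runs, Junb held the Foxo site, Fos the TATA box, Batf 2 and Jun 1 copy of the NFAT core, those of Batf on the opposite strand as TTTCC. RefSeq windows of 300 bases around the start were found for 9 of the 10 members, 11 windows in all, and the Foxo site was in none but that of Junb. Over all 32851 windows of the same length, 5.2% held the AP-1 site, 1.79% the cAMP response element, 3.65% the Foxo site, 61.3% the NFAT core, 13.6% the TATA box and 1.63% the serum response element. None of the members' windows held an exact copy of the AP-1 site, the cAMP response element or the serum response element. Near matches, such as TGACATCA in the Jun run and TGACGTAG in the Fos run, were not counted, so such elements may still be present. A match is a description of the letters, and these windows are short, so elements further upstream are not covered.

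Among the 6 tested members, 1 was called higher in Foxo1TKO cells (Fos, 16.7%) and 1 lower (Batf, 16.7%), against 11.1% and 11.8% of all genes tested. Their values did not overlap between the genotypes for 3 of the 6 (Fos, Batf and Fosl2), against 42.7% of all genes tested. Over 6 genes, these shares are close enough to the background that nothing is read from them about the family. The median log2 fold change of the 6 was −0.46, and that of all genes tested was 0.011.

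**Figure D1:**
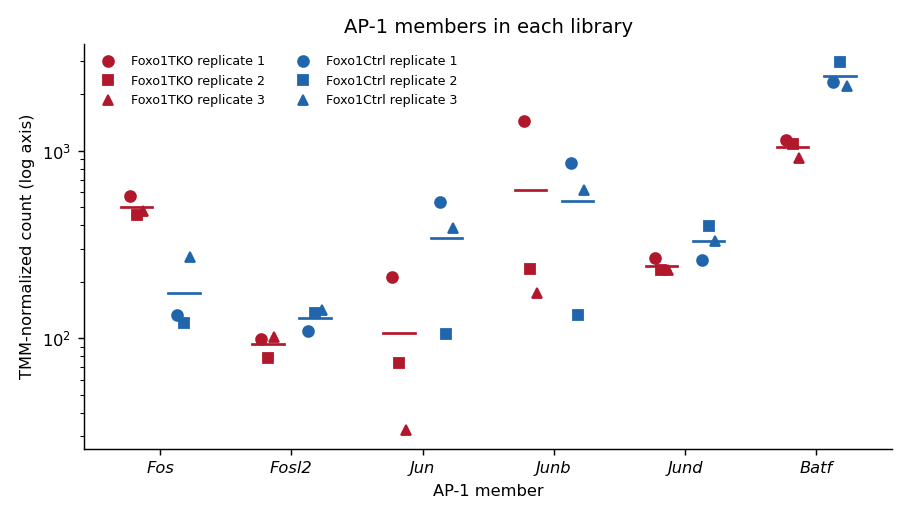
Normalized counts of the 6 tested AP-1 members on a log axis, 1 symbol per library (circles, squares and triangles for replicates 1, 2 and 3; red for Foxo1TKO, blue for Foxo1Ctrl), with a bar at each group's mean. Fos lay higher and Batf lower in every Foxo1TKO library, while Jun and Junb spread widely within both genotypes.

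Within the Fos subfamily, Fos rose and no other member was called. Fos, the founding member and an immediate early gene (ENSMUSG00000021250, chromosome 12, 85473890 to 85477273 on GRCm38), had 574, 453 and 474 normalized counts in Foxo1TKO libraries and 134, 120.1 and 270.3 in Foxo1Ctrl libraries. Each Foxo1TKO library lay above each Foxo1Ctrl library, and Foxo1Ctrl replicate 3 was the closest to them. The mean was 500.3 ± 64.6 (SD, n = 3) against 175 ± 83.1 (n = 3), a 2.85-fold difference (log2 fold change 1.51, SE 0.32, adjusted p = 0.0130 from edgeR). In leave-one-out fits, which drop 1 library each, the log2 fold change was 1.32 to 1.97, and the largest adjusted p, without Foxo1Ctrl replicate 1, was 0.0495.

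Fosl2, also called Fra-2, is a Fos relative that lacks the strong activation domain of Fos (ENSMUSG00000029135, chromosome 5, 32135801 to 32157842). It had 98.9, 78.1 and 102 normalized counts in Foxo1TKO libraries and 109.7, 136 and 140.5 in Foxo1Ctrl libraries. The values did not overlap, but the gap between the nearest libraries was small against the spread of each group, and Fosl2 did not pass the test (log2 fold change −0.47, SE 0.24, adjusted p = 0.206 from edgeR). In the authors' table, which also corrects for effective length, Fosl2 did overlap, with 116, 76.9 and 90.6 against 110.3, 129 and 136.

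Fosb and Fosl1, the remaining Fos relatives, were close to the limit of detection. Fosb had 7, 1 and 15 counts in Foxo1TKO libraries and 1, 0 and 2 in Foxo1Ctrl libraries. Fosl1, known as Fra-1, had 17, 4 and 19 counts against 2, 0 and 0. All Fosl1 counts of Foxo1TKO libraries were above those of Foxo1Ctrl libraries, whereas Fosb overlapped.

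Summed over 3 libraries and corrected for library size, Fosl1 was at a ratio of 16.9 (40 against 2 counts, exact 95% interval 4.37 to 144) and Fosb at 6.47 (23 against 3 counts, 1.95 to 33.6). These intervals cover counting error only, not the spread between libraries. When no filter on low counts was applied, Fosl1 passed the test (log2 fold change 2.97, SE 0.88, adjusted p = 0.0301 from edgeR) and Fosb did not (2.04, SE 0.94, adjusted p = 0.181 from edgeR). An antisense gene, Ccdc85b, shares 1163 of the 2033 exon bases of Fosl1. No source used here says that counting used strand, so reads in the shared bases could belong to either gene.

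Within the Jun subfamily, no member was called in either direction. Jun, the classical partner of Fos (ENSMUSG00000052684, chromosome 4, 95049034 to 95052222), had 213, 73.7 and 32.2 normalized counts in Foxo1TKO libraries and 535, 105 and 389.5 in Foxo1Ctrl libraries. The groups overlapped, since Foxo1TKO replicate 1 exceeded Foxo1Ctrl replicate 2. The log2 fold change was −1.67 (SE 0.74, adjusted p = 0.145 from edgeR). Without Foxo1TKO replicate 1 it was −2.67 and passed the test (adjusted p = 0.0355 from edgeR), and DESeq2's Wald test on all libraries passed it narrowly (−1.67, adjusted p = 0.0475).

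Junb, a Jun relative and frequent partner of Batf in T cells (ENSMUSG00000052837, chromosome 8, 84974484 to 84978718), had 1437, 234 and 174 normalized counts against 863, 133 and 619. The Foxo1TKO library with the highest value exceeded the lowest of that genotype 8.26-fold, and in Foxo1Ctrl the ratio was 6.51. The log2 fold change of 0.19 (SE 0.88, adjusted p = 0.899 from edgeR) turned to −1.40 without Foxo1TKO replicate 1, so Junb had no stable direction.

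Jund, the Jun member that resting cells already express (ENSMUSG00000071076, chromosome 8, 70698949 to 70700616), had 267, 231 and 229.7 normalized counts in Foxo1TKO libraries and 262, 398 and 330.4 in Foxo1Ctrl libraries. Only Foxo1Ctrl replicate 1 lay within the range of the other genotype. The log2 fold change was −0.44 (SE 0.21, adjusted p = 0.175 from edgeR). The exons of Jund share 877 of their 1668 bases with the antisense gene Gm11175. Those of Jun share 232 of 3189 with Junos, and those of Junb 173 of 2301 with Prdx2. Reads in the shared bases could belong to either gene of a pair.

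The libraries of a genotype differed widely in Jun and Junb. The pooled SD of log2 values within genotypes was 1.29 for Jun and 1.54 for Junb, whereas the median over the 9235 genes whose mean reached 100 normalized counts was 0.269. These SDs exceeded those of 99.6% and 99.8% of these genes. Fos (0.465) was also above the median, while Batf (0.202), Fosl2 (0.201) and Jund (0.23) were below it.

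Jun and Junb were high in the same libraries, Foxo1TKO replicate 1 and Foxo1Ctrl replicates 1 and 3. Zfp36, which encodes an mRNA-destabilizing protein and is itself an immediate early gene, was high in the same 3 libraries, with 1289, 342 and 264 normalized counts against 1318, 209 and 1342. Cd4, a T cell marker outside the list of immediate early genes, was also highest in these libraries, with 7730, 3719 and 2441 against 8386, 2410 and 6310. Zfp36 was singled out from that list, and Cd4 from the T cell markers, after their values were seen.

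The libraries also differed in how counts depended on the GC content of the transcript, by 0.326, −0.0093 and −0.0767 on the log2 scale per 10 percentage points of GC in Foxo1TKO and by 0.0926, −0.377 and 0.0447 in Foxo1Ctrl. Junb transcripts have 62.6% GC and Jun transcripts 55.5%. After a correction for this trend, chosen after the data were seen, Junb had 1042, 234 and 179 normalized counts against 802, 189.5 and 563, and Jun 175, 74.6 and 34.0 against 479.9, 132 and 364. The highest-to-lowest ratio within genotypes fell to 5.82 and 4.23 for Junb and to 5.16 and 3.65 for Jun, so most of the spread remained. Jund, at 67.1% GC, had 184, 220 and 226 against 267, 593 and 299 after the correction, without overlap. Its log2 fold change became −0.87 (SE 0.31) and still did not pass the test (adjusted p = 0.0731 from edgeR). Its highest-to-lowest ratio in Foxo1Ctrl grew from 1.52 to 2.22.

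Although each gene varied, the ratio of Junb to Jun within a library separated the genotypes. It was 6.75, 3.18 and 5.40 in Foxo1TKO libraries and 1.61, 1.261 and 1.59 in Foxo1Ctrl libraries, on the scale of normalized counts. Every Foxo1TKO library had the higher ratio, with a mean of 5.11 ± 1.80 (SD, n = 3) against 1.49 ± 0.197 (n = 3). After the GC correction the ratios were 5.95, 3.14 and 5.27 against 1.67, 1.44 and 1.55. Of the other ratios computed on normalized counts, Fos to Jun (2.69, 6.14 and 14.7 against 0.249, 1.14 and 0.694) and Fos to Batf also separated the genotypes. Fos to Junb (0.399, 1.93 and 2.73 against 0.155, 0.905 and 0.437) and Jun to Batf overlapped. Among single genes, the values of 42.7% of all genes tested did not overlap, so separation alone does not mark a ratio out. The ratio of Junb to Jun was chosen after its values were seen and was not tested.

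**Figure D2:**
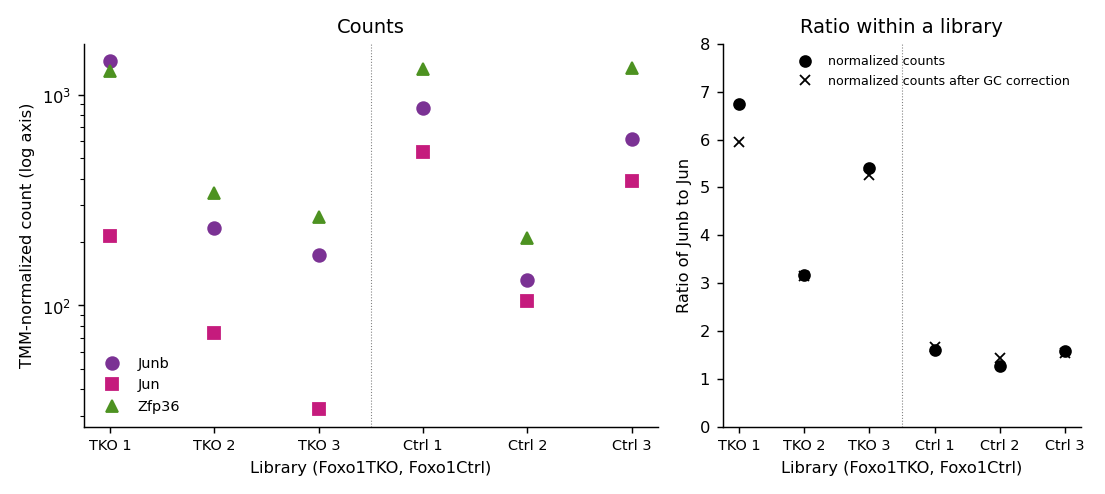
Left, normalized counts of Junb, Jun and Zfp36 in each library on a log axis. Right, the ratio of Junb to Jun within each library, from normalized counts (circles) and after the GC correction (crosses). Each gene was highest in Foxo1TKO replicate 1 and Foxo1Ctrl replicates 1 and 3. The ratio from normalized counts lay between 3.18 and 6.75 in Foxo1TKO and between 1.261 and 1.61 in Foxo1Ctrl libraries.

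Batf was the member with the lowest adjusted p, and it fell. Batf (ENSMUSG00000034266, chromosome 12, 85686669 to 85709087), which T cells need for several effector programs, had 1146, 1086 and 911 normalized counts in Foxo1TKO libraries and 2315, 2963 and 2212 in Foxo1Ctrl libraries. Every Foxo1TKO library was below every Foxo1Ctrl library by a wide margin. The mean was 1048 ± 122 (SD, n = 3) against 2497 ± 407 (n = 3), 2.38-fold lower (log2 fold change −1.25, SE 0.17, adjusted p = 0.00206 from edgeR). Its log2 fold change was −1.34 to −1.09 in the leave-one-out fits, with adjusted p-values of at most 0.0178 from edgeR.

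Batf3, the relative that dendritic cells use, and Jdp2, a repressor that competes with Fos for Jun, were near the limit of detection. Batf3 had 1, 9 and 9 counts in Foxo1TKO libraries and 5, 1 and 6 in Foxo1Ctrl libraries. The ratio of its sums, 19 against 12 counts, was 1.33 after correction for library size (exact 95% interval 0.616 to 3.02), so no difference was detectable at this depth. Jdp2 had 13, 17 and 7 counts against 0, 4 and 2, and its 3 Foxo1TKO libraries were above all Foxo1Ctrl libraries.

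For Jdp2 the summed ratio was 5.20 (37 against 6 counts, exact 95% interval 2.18 to 15.1, counting error only). Without the filter on low counts, Jdp2 did not pass the test across libraries (log2 fold change 1.94, SE 0.78, adjusted p = 0.120 from edgeR). Gm47863, an antisense noncoding gene with 165 exon bases in common with Jdp2, had 24, 13 and 24 counts in Foxo1TKO libraries and 1, 3 and 3 in Foxo1Ctrl libraries. It was called higher (log2 fold change 2.5, SE 0.52, adjusted p = 0.0111 from edgeR), and reads in the shared bases could belong to either gene.

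Fos, Jdp2 and Batf lie in that order on the plus strand of chromosome 12, within 235.2 kb from the start of Fos to the end of Batf. Of the 6 annotated genes with a row in the count files in this interval, 3 were tested: Fos and Gm47863, which rose, and Batf, which fell. The 12 tested genes within 250 kb of the interval or inside it held 2 called higher and 2 called lower. That was near the shares of all genes tested, 11.1% and 11.8%, so nothing is read from these counts about the stretch. The other gene called was Mlh3, a DNA mismatch repair gene on the far side of Fos (351 ± 10.7 against 673 ± 86.5 normalized counts, log2 fold change −0.94, adjusted p = 0.00622 from edgeR). Tmed10 and Nek9, the coding genes next to Fos on its upstream side, were not called (log2 fold changes 0.03 and 0.30).

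**Figure D3:**
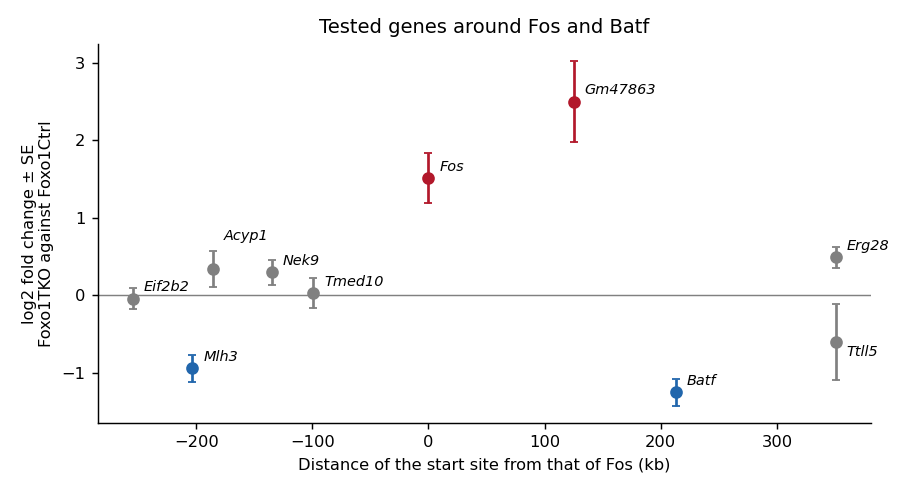
Log2 fold change with its SE for the tested coding genes and Gm47863 around Fos and Batf, by the distance of each start site from that of Fos in kb. Red marks genes called higher, blue genes called lower and grey genes not called in Foxo1TKO cells; Fos and Batf, 212.8 kb apart by their starts, moved in opposite directions.

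Levels of different genes were compared in TPM, the length-corrected unit that RSEM gives, which takes transcript length into account. Batf was the most abundant AP-1 transcript in all 6 libraries, with 108, 91.3 and 72.3 TPM in Foxo1TKO and 204, 214 and 196 TPM in Foxo1Ctrl. The summed TPM of the 10 members was 217, 130.1 and 107 in Foxo1TKO libraries and 270.5, 240.2 and 258 in Foxo1Ctrl libraries. The sum was lower in every Foxo1TKO library, and Foxo1TKO replicate 1, where Junb alone reached 63.8 TPM, came closest to the Foxo1Ctrl libraries.

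The make-up of this sum also differed. Batf took 49.8%, 70.2% and 67.4% of it in Foxo1TKO libraries and 75.4%, 88.9% and 76.2% in Foxo1Ctrl libraries. Fos took 11%, 11.8% and 14.03% against 1.73%, 1.46% and 3.67%. Neither share overlapped between the genotypes, and among the members Fos ranked 2 or 3 in Foxo1TKO libraries and 4 or 5 in Foxo1Ctrl libraries. The shares of Fosl2, Fosl1 and Jdp2 did not overlap either, whereas those of Jun, Junb, Jund, Fosb and Batf3 did. Shares of 1 sum are tied to each other, so a smaller share of Batf leaves larger shares for other members. That of Fosl2 rose (0.673%, 0.684% and 0.914% against 0.492%, 0.529% and 0.636%), although its normalized counts were lower in Foxo1TKO libraries.

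The ratio of Fos to Batf in TPM was 0.199 ± 0.0278 (SD, n = 3) in Foxo1TKO and 0.0292 ± 0.0168 (n = 3) in Foxo1Ctrl libraries. The Jun subfamily took 37.8%, 16.2% and 15.5% of the sum against 22.1%, 8.96% and 19.2%, with overlap. Below Batf, Junb (4.57 to 63.8 TPM), Fos (3.50 to 23.9 TPM), Jund (9.42 to 14.98 TPM) and Jun (0.66 to 12.1 TPM) changed places between libraries, and their order was not fixed beyond this spread. Fosl2 was at 0.89 to 1.64 TPM, while Fosb, Fosl1, Batf3 and Jdp2 stayed under 1 TPM in every library.

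**Figure D4:**
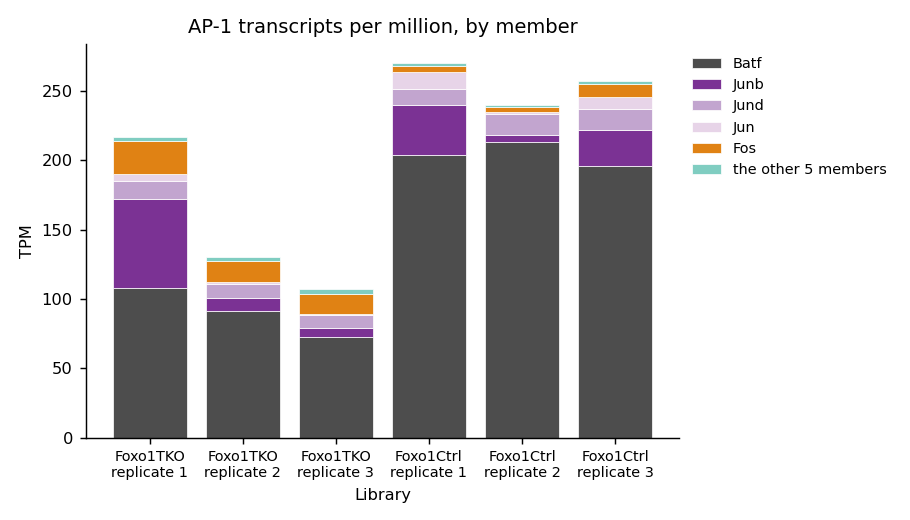
TPM of the AP-1 members stacked for each library, with the bars starting at 0. Batf made up the largest part of every bar; the sum was 107 to 217 TPM in Foxo1TKO and 240.2 to 270.5 TPM in Foxo1Ctrl libraries, and Fos filled a larger part of the Foxo1TKO bars.

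The pattern of Fos over the 6 libraries was most like that of Csrp1, a LIM-domain protein gene, and Eif3b, a subunit of a translation initiation factor. They were found among 9146 tested genes outside the gene lists, with root mean square differences of 0.0991 and 0.159 on the centred log2 scale. Csrp1 had 1258, 1140.0 and 1119 normalized counts in Foxo1TKO libraries and 328, 253 and 679 in Foxo1Ctrl libraries, with Foxo1Ctrl replicate 3 highest among the controls as for Fos. The pattern of Batf was most like that of Enpp1, an ectonucleotide pyrophosphatase gene, and Sec24a, which encodes a coat protein of secretory vesicles (0.0809 and 0.0982). Enpp1 had 445, 483 and 394 normalized counts against 945.5, 1122 and 906.

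The partners of AP-1 at composite DNA sites include NFAT proteins and, for Batf, IRF4 and IRF8. The list of these partners, like the lists below, was chosen with earlier results of these data known. A share above the background is therefore not a test of a list. Of the 6 genes in this list, all tested, 2 were called higher and 2 lower (33.3% each, against 11.1% and 11.8% of all genes tested), with a median log2 fold change of −0.14. Irf8 had 8698, 6457 and 6086 normalized counts in Foxo1TKO and 1182, 789 and 1916 in Foxo1Ctrl libraries, and it rose (log2 fold change 2.45, SE 0.33). Irf4 had 98.9, 121 and 59.0 against 203, 186 and 228 and fell (−1.13, SE 0.29, adjusted p = 0.0271 from edgeR). The IRF genes of the list thus moved in opposite directions without overlap between the genotypes, Irf4 together with Batf.

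Irf8 was called in all 6 leave-one-out fits and Irf4 in 2 of them. Nfatc3 fell (−1.01, SE 0.20) and Nfatc1 rose (0.64, SE 0.15), the latter called in 2 of the 6 leave-one-out fits. Nfatc2 (−0.27) and Nfat5 (−0.01) did not pass the test.

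Other immediate early genes, which the same receptor signals switch on, were mostly called higher. Of 19 tested, 11 were called higher (57.9%, against 11.1% of all genes tested) and 2 lower (10.5%, against 11.8%), with a median log2 fold change of 1.09. Because earlier results were known when the list was chosen, this excess is not an independent result. Nr4a2, an orphan nuclear receptor gene, had 726, 376 and 506.5 normalized counts in Foxo1TKO and 25.04, 24.0 and 47.5 in Foxo1Ctrl libraries (log2 fold change 4.01, SE 0.38). Nr4a3 (3.28, SE 0.34), Nr4a1 (2.62, SE 0.80) and the stress-response gene Gadd45b (2.22, SE 0.20) rose as well, and so did Klf4 (1.99, SE 0.50), a Krüppel-like factor gene at 2.91 to 38.0 normalized counts, and Myc (1.82, SE 0.20). The genes that fell were Klf6 (−1.61, SE 0.15) and Btg2 (−1.05, SE 0.17), both known as restraints of proliferation.

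The rise was thus not shared by the whole group, and its count depended on single libraries. Without Foxo1TKO replicate 1, 5 of these genes were called higher, and without Foxo1TKO replicate 2 or Foxo1Ctrl replicate 1, 6 were. Nr4a1 ranged from 2183 to 9128 normalized counts in Foxo1TKO libraries and from 158 to 1384 in Foxo1Ctrl libraries, and it was called in 1 of the 6 leave-one-out fits. Nr4a2, Nr4a3, Myc, Gadd45b and Egr3 were called higher in all 6.

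The list of kinases, upstream factors and ubiquitin ligases that control AP-1 had 22 genes, all tested, of which 2 were called higher and 2 lower (9.09% each, against 11.1% and 11.8% of all genes tested, with a median log2 fold change of 0.04). The counts of this list were thus not above the background, and its genes are given as single values. Rasgrp1, which activates Ras below the T-cell receptor, had 7067, 6307 and 5986 normalized counts in Foxo1TKO and 2833, 2564 and 3970 in Foxo1Ctrl libraries and rose (1.05, SE 0.19). Elk3, an ETS factor gene (0.94, SE 0.22), rose too. Map3k1, a kinase gene upstream of JNK, fell (−1.80, SE 0.41), as did Fbxw7 (−1.41, SE 0.25), whose ubiquitin ligase marks Jun and Myc proteins for degradation.

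Mapk8 and Mapk9, which encode the JNK kinases that phosphorylate Jun, did not pass the test (0.43 and 0.26), nor did Itch (−0.35), a ligase gene for Jun and Junb. Rasgrp1 and Fbxw7 were called in all 6 leave-one-out fits, Map3k1 in 4 and Elk3 in 3.

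Among 20 genes known as targets of AP-1 or Batf in lymphocytes, 13 were tested, of which 3 were called higher (23.1%, against 11.1% of all genes tested) and 6 lower (46.2%, against 11.8%), with a median log2 fold change of −0.02. Csf2, the gene of the cytokine GM-CSF, had 169, 161 and 214 normalized counts in Foxo1TKO and 9.54, 29.7 and 13.6 in Foxo1Ctrl libraries and rose (3.29, SE 0.42). Plaur (1.96, SE 0.44), the urokinase receptor gene, and Tnf (1.16, SE 0.27) rose too. Ctla4, an inhibitory receptor gene, had 329, 339 and 262 normalized counts against 5957, 5783 and 5114 and fell (−4.18, SE 0.18).

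Targets such as cytokine and receptor genes therefore moved both ways. Prdm1, the gene of the repressor Blimp-1, fell (−4.08, SE 0.52), and so did Il21 (−3.61, SE 0.67), which in Foxo1TKO libraries had at most 5.26 normalized counts. Gzmb (−2.41, SE 0.47), Il2 (−2.28, SE 0.52) and Icos (−1.64, SE 0.20) fell as well. Il2ra (−0.02) and Cd69 (0.21), both activation markers, did not pass the test, with 1590 to 2221 and 2986 to 4216 normalized counts.

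Of 18 further leucine zipper genes related to AP-1, 16 were tested, none was called higher and 2 were called lower (12.5%, near the 11.8% of all genes tested), with a median log2 fold change of −0.22. Bach2, a repressor that binds AP-1 like sites, had 1480, 912 and 940.1 normalized counts in Foxo1TKO and 2665, 1681 and 2298 in Foxo1Ctrl libraries (−0.99, SE 0.25, adjusted p = 0.0241 from edgeR). Ddit3, the gene of the stress factor CHOP, had 473, 475 and 545 against 891, 866 and 767 (−0.76, SE 0.16). Bach2 was called in 2 and Ddit3 in 4 of the 6 leave-one-out fits. Atf3, often induced beside Fos and Jun, stayed under 8 counts in all libraries and was not tested.

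**Figure D5:**
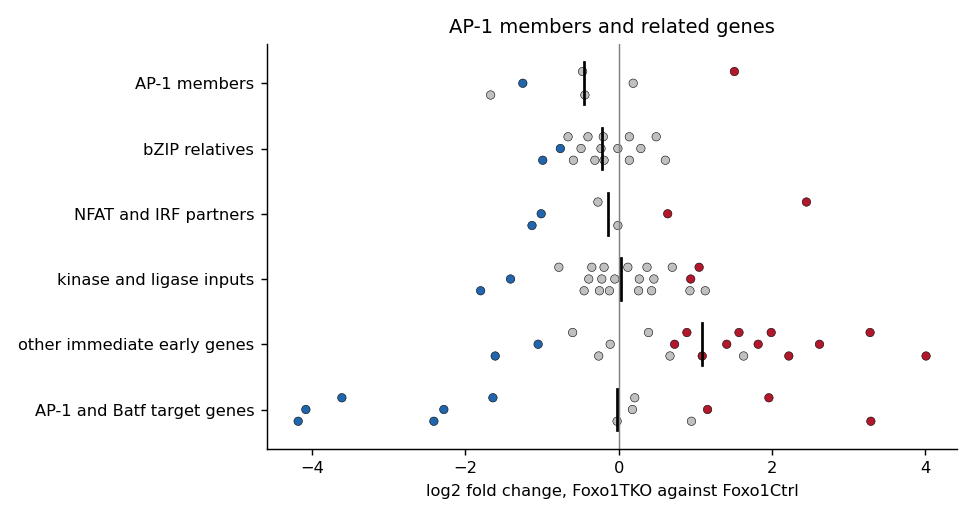
Log2 fold changes of the tested AP-1 members and of 5 lists of related genes, with red for genes called higher, blue for genes called lower, grey for genes not called and a black line at each list's median. The other immediate early genes had a median of 1.09, and the medians of the other lists lay between −0.46 and 0.04.

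The cultures held splenocytes at the start, and in RNA of whole cultures fewer cells of a type and less RNA per cell cannot be told apart. T cell markers were high in all libraries, with summed normalized counts of 193500 to 197700 in Foxo1TKO and 230500 to 254100 in Foxo1Ctrl libraries. Of these markers, 2 of 13 were called lower (15.4%, near the 11.8% of all genes tested). B cell markers summed to 174 to 239 against 605 to 687, with 4 of 8 tested genes lower (50%) and 10 in the list. Plasma cell markers summed to 359 to 956 against 1663 to 2518, with 2 of 3 tested genes lower (66.7%) and 5 in the list. The sums of T cell, B cell and plasma cell markers were lower in every Foxo1TKO library, as Batf was. Their part in the fall of Batf was not tested.

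Macrophage and monocyte markers summed to 71.0 to 100.9 against 396 to 723, with 1 of 2 tested genes lower (50%, against 11.8% of all genes tested) and 10 in the list. Fcgr3 alone (at most 7.02 against at least 352) made up most of each Foxo1Ctrl sum, so the fall of the sum was that of this gene. Cd68, the other tested marker, was higher in every Foxo1TKO library (60.01, 64.9 and 83.7 against 44.1, 44.6 and 34.9) but did not pass the test (log2 fold change 0.74, adjusted p = 0.0990 from edgeR). Csf1r and Adgre1 had at most 3.38 normalized counts and C1qa and Mertk were at 0 in all libraries. Dendritic cell markers summed to 887.5 to 1002 against 1042 to 1093, with none of 3 tested genes called and 8 in the list. This sum was also lower in every Foxo1TKO library. CD8 T cell markers (91.2 to 145 against 144 to 161, 0 of 1 tested called) and erythroid markers (233 to 384.5 against 296 to 426, 0 of 3 called) overlapped between the genotypes. Neutrophil markers, none of which could be tested, summed to 4.29 to 61.4 in Foxo1TKO and 0 to 3.58 in Foxo1Ctrl libraries. This sum was higher in every Foxo1TKO library, as Fos was, at few counts, and its part in the rise of Fos was not tested. NK cell markers summed to 1286 to 1406 against 250.4 to 432, where the rise of Eomes, which activated T cells also express, made up most of the sum.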

How the data were processed

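RNA-seq of 6 cultures was analysed, 3 per genotype as given in the sample labels. According to the methods, the authors aligned reads with STAR 2.7.6a to Ensembl GRCm38 and counted them with RSEM 1.3.1. Whether counting used strand is not given in the sources used here. The authors deposited RSEM expected counts, TPM and effective lengths per library, and a table of normalized signal for 13564 genes, which was checked to be the rounded count divided by the relative effective length and 1 factor per library (100% of values above 0 within 0.1%). The deposited expected counts were rounded to whole numbers, and library totals set the precision of low counts.

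The 13691 genes that reached 10 counts in 3 or more libraries were tested with edgeR 4.0.16 in R 4.3.3 (TMM, glmQLFit, glmQLFTest, prior count 1), with genotype as the only term and Benjamini-Hochberg adjustment over all genes tested. The SE of a log2 fold change is its size divided by the square root of the F statistic. A call needed a fold change over 1.5 beside an adjusted p below 0.05. With 3 libraries per genotype, the smallest two-sided exact permutation p is 0.1, and no such test was used. Exact intervals of count ratios are Clopper-Pearson intervals at 95%. The scripts were tested on simulated counts.

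The AP-1 members and the gene lists were chosen with earlier results of these data known. Named genes are the members, Foxo1, the list members with the largest changes past the threshold, and for each member called different the 2 genes of at least 100 mean normalized counts nearest in pattern. Genes named for another reason were chosen after their values were seen. Gene coordinates came from GENCODE M21 (GRCm38). Alternatives were DESeq2 1.42.0, limma 3.58.1 (voom on counts, and trend on log2 of the authors' signal plus 1 or 10), other scalings, filters and thresholds, the replicate number as a block, each library left out and, added after the data were seen, a correction for GC content by a lowess curve (span 0.3) per library over the 99.9% of tested genes with a value. Protein sequences were not used here. A gene of the list of AP-1 inputs is not reported here and was left out of its counts. Figures were drawn with matplotlib 3.10.9.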

Additional observations from a re-analysis of the deposited data

How the results depend on the processing

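Fos was called higher and Batf lower in all 17 other fits. The total of 3144 called genes was 1597 at an adjusted p under 0.01, 3694 by DESeq2's Wald test and 1854 to 3321 with each library left out (lowest without Foxo1TKO replicate 2, 2031 without Foxo1Ctrl replicate 1). Members called higher numbered 2 without a filter on low counts (Fos and Fosl1), 0 at an adjusted p under 0.01, and 1 with each library left out. Members called lower numbered 2 (Batf and Jun) by DESeq2 and under GC correction with the replicate block, and 1 to 2 with each library left out (2 without Foxo1TKO replicate 1). The log2 fold change of Jun stayed negative in all 17. That of Junb, 0.19, was −0.06 by limma-voom, −0.08 by limma on the authors' signal with either pseudocount, −0.05 with the replicate block, −0.09 with the GC correction, −0.30 with GC correction and replicate block, and between −1.40 and 0.73 with each library left out (−0.23 without Foxo1Ctrl replicate 2). The cause was not tested. Batf took 62.5% of the summed level in Foxo1TKO and 80.2% in Foxo1Ctrl, and 63.4% and 80.4% from the authors' signal per effective length.

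The labels do not say whether equal replicate numbers pair the samples. In the paper, flow cytometry values of such cultures were compared in pairs by experiment. Deviations of same-numbered libraries correlated at 0.683, 0.407 and −0.293. They were centred on the mean of 3 libraries per genotype, so they cannot decide whether samples were paired. With the replicate block, 3318 genes were called, 2969 of them shared with the 3144 in the same direction, and the AP-1 members called were again Fos and Batf (adjusted p 0.00991 and 0.00273; Jun 0.0613, edgeR). Not every library correlated best with its own number. The depth left Fosb, Fosl1, Batf3 and Jdp2 at 0 to 19 counts per library, too few to follow between libraries. A planned comparison of the members' leucine zipper sequences was not run.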
